A study of Rattus norvegicus with 18 samples.

Results

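A stretch of rat chromosome 16 of 1.0 Mb, from position 20500001 to 21500000 of the genome build rn6, was examined for DNA methylation in the hippocampus of rats with seizures and of sham rats. It holds 6020 of the 2330883 cytosines measured in the study and 219 of the 151450 non-overlapping tiles of 1000 bp with at least 3 measured cytosines. The 6020 cytosines belong to 3328 CpGs, of which 2692 were measured on both strands. The span was chosen from the measured levels themselves: it held single cytosines that differed between seizure and sham rats of the kainic acid model, and whose differences in the kainic acid and kindling models had opposite signs. Group differences inside it are therefore given as a description, with no test read from them.

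The animals were 18 adult male Sprague-Dawley rats, an outbred stock, and DNA came from the left hippocampus. In kindling, electrodes in the hippocampus deliver stimulations day after day until seizures become fully generalised. In the kainic acid model, injections of this glutamate receptor agonist bring on status epilepticus. There were 4 kindling sham rats, 4 kindling seizure rats, 7 kainic acid sham rats and 3 kainic acid seizure rats, each a separate animal. Seizure rats of both models carried the label of 3 class V seizures and their tissue was taken 24 hours after the last seizure, while the sources used here do not say what was done to the sham rats. A level is an average over all cells of a whole hippocampus, neurons and glia together, so a change in every cell and a change in the mix of cells cannot be told apart.

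In mammalian DNA most CpGs carry a methyl group on nearly every copy, while CpG-dense promoters are usually kept free of it. Reduced representation bisulfite sequencing cuts DNA with the enzyme MspI at CCGG, so that it samples CpG-dense DNA heavily, and bisulfite then turns unmethylated cytosines into bases that read as thymine. Both strands of a CpG are normally methylated alike, and a level is the share of reads that kept their cytosine. A thymine in the DNA in place of the cytosine reads like an unmethylated one, and the DNA sequence of the rats was not examined here. At every site below, a level near 0 or in the middle may therefore hold either. A level near 100% leaves little room for either, but its distance from a lower level may come from either. The part of DNA sequence in these levels and differences was not tested. The span is gene-dense and includes genes of the nervous system such as Ncan, a proteoglycan of the brain extracellular matrix, Hapln4, a link protein of perineuronal nets, Homer3, a scaffold protein of the synapse, and Crtc1, a coactivator of the transcription factor CREB.

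Gene landmarks came from RefSeq promoter sequences of build GRCr8 (300 bp, from 250 bp before to 50 bp after a start site), each placed in the span by the spacing of its CG pairs against the spacing of the measured CpGs. The promoters of 21 named genes could be placed, all in the RefSeq order and orientation of chromosome 16. The promoters below are those nearest to the sites that the results turn on. They are shown because their mean levels stayed low in every rat while those sites did not. Cers1, a ceramide synthase of neurons, shares its start with the growth factor gene Gdf1; Slc25a42 encodes a mitochondrial carrier of coenzyme A, and Cilp2 a protein of the cartilage matrix. Cers1 lies on the minus strand and the other two on the plus strand of rn6, the sequences run 5′ to 3′ in the direction of the gene, and capitals mark each CG that was measured on at least 1 strand.
Cers1: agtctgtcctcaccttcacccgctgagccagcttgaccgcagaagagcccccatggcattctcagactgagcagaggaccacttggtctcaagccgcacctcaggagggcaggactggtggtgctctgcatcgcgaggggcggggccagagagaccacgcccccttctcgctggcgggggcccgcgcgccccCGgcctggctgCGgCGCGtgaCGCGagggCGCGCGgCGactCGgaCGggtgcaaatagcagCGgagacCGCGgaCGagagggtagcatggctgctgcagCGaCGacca
Slc25a42: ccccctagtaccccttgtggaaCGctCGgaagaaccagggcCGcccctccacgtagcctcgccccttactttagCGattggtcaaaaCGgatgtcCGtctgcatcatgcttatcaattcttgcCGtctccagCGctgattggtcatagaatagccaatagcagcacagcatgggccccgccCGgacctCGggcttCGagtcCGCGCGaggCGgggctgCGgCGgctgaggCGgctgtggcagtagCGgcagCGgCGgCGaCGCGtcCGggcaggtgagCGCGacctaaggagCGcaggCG
Cilp2: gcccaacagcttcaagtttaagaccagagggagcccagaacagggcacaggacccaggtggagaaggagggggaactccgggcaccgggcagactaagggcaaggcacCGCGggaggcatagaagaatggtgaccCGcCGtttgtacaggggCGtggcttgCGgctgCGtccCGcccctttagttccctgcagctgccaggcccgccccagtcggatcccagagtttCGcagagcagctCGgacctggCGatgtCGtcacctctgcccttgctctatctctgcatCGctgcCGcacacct
The MspI site CCGG, which reads the same on both strands, occurs in all 25 placed promoters and in 51.4% of the 33469 promoters of the table. Placement needed at least 9 measured CpGs, and the method measures CpGs near CCGG. The placed promoters were thus all but bound to hold the site, and nothing is read from the contrast.

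The 18 libraries were alike in their average level across the span. Kindling sham and seizure rats had means over all its cytosines of 24.5% ± 0.439 and 24.7% ± 0.543 (SD, n = 4 each). The kainic acid groups had 24.5% ± 0.396 (sham, SD, n = 7) and 24.9% ± 0.227 (seizure, SD, n = 3). Seizure minus sham was 0.211 percentage points (points below) in kindling, less than the SD of either group, and 0.423 points in kainic acid. Without kindling seizure rat 3 the kindling difference was -0.00163 points. The number of reads behind a level is unknown. The share of levels of exactly 0, which can rise where reads are few, was lowest, at 11.9%, in rat 1 of the kindling seizure group and highest, at 33.5%, in rat 4 of the kindling sham group.

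Mean levels of the promoters were low and steady, though single cytosines in them could be high. A mean over the rats above 50% was seen at 4 of 22 cytosines at Mef2b and 5 of 63 at Pgpep1. It was seen at 1 of 35 at Cers1, 2 of 55 at Slc25a42 and 0 of 27 at Cilp2. Over the placed promoters the mean level ran from 0.467% at Upf1, an RNA helicase of nonsense-mediated decay, to 19.1% at Mef2b, a MEF2-family transcription factor. Within a promoter the lowest and the highest of the 18 rats differed by at most 4.74 points. For the 3 promoters printed above, the rats ran from 3.07 to 7.81% at Cers1, from 3.94 to 6.17% at Slc25a42 and from 0.372 to 2.83% at Cilp2. Of the 320 CpGs inside placed promoters none had a range of 30 points or more over the rats, the largest range being 13.5 points. Promoters of the genes of the extracellular matrix were also low, with 7.05% at Ncan (5.92 to 9.0% over the rats) and 1.51% at Hapln4 (0.506 to 3.06%).

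**Figure D1:**
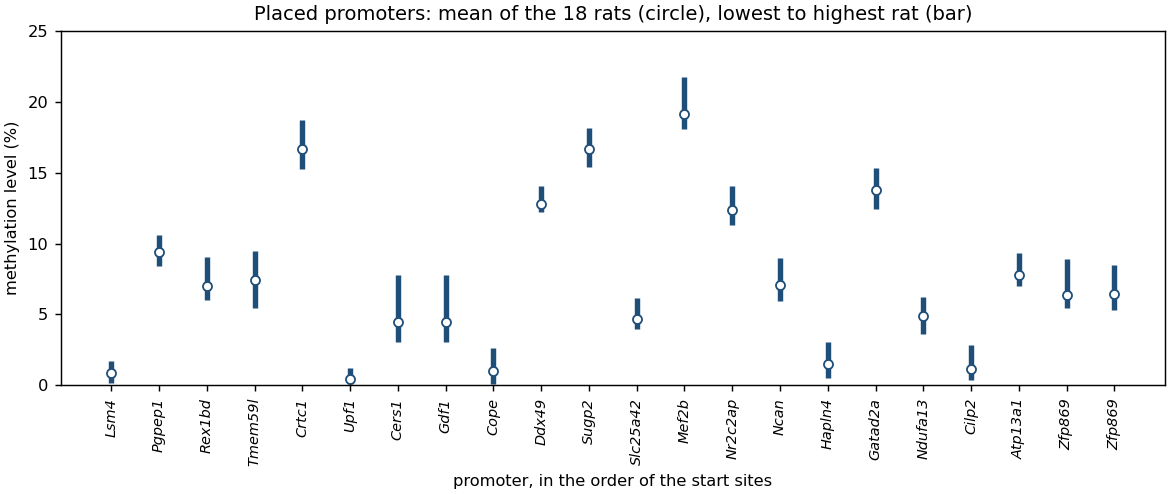
Mean methylation level (%) of the placed RefSeq promoters of named genes in the order of their start sites, with the mean of the 18 rats as a circle and the lowest to highest rat as a bar; Zfp869 has 2 placed promoters. All means lie between 0.467 and 19.1%, and no bar is longer than 4.74 points.

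Low levels were more common in the span than over the whole table. A mean level under 10% was seen at 66.3% of its cytosines against 48.1% of the whole table, a mean between 10 and 90% at 18.6% against 23.4%, and a mean above 90% at 15.1% against 28.6%. Fewer of its cytosines varied moderately between rats: 10.9% had a range of at least 20 points against 15.9% of the whole table. A range of at least 60 points was reached by 36 cytosines, or 0.598%, against 0.554% of the whole table. When both strands were averaged, 93 CpGs had a range of at least 30 points. None of these 93 lay within 1 kb of a placed start site, and their median distance from the nearest placed one was 11.8 kb.

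Cytosines and tiles were compared between groups with limma, fitted over the whole table, with p-values adjusted by the Benjamini-Hochberg method. Only cytosines that varied by 10 points or more among the 18 rats entered, 1682 in the span and 800753 in all. In the kainic acid comparison 3 cytosines of the span had an adjusted p under 0.05, all lower in seizure rats, beside 0.000624% of all cytosines tested. These calls chose the span, so nothing is read from the contrast between the shares. In kindling 0 cytosines were called (0.0% of all tested), with 90 of 1682 at an unadjusted p under 0.05, or 5.35%, beside 5.72% of all cytosines tested. The kainic acid comparison had 88 at that unadjusted p, or 5.23%, beside 3.82%. The difference between models was called at the same 3 cytosines, again beside 0.000624%, with 104 at an unadjusted p under 0.05 beside 4.63%. Kainic acid sham against kindling sham gave 0 (0.0% of all tested, with 97 of the 1682 at an unadjusted p under 0.05 beside 6.16%). Of the 96 tiles of the span with a range of at least 5 points, 0 were called in any comparison (0.0% of all 84600 tested). At an unadjusted p under 0.05 there were 5 tiles in kindling and 6 in kainic acid, or 5.21% and 6.25%, beside 5.71% and 3.54% of all tiles. The model difference had 7 such tiles beside 4.75%, and the sham comparison 3 beside 6.35%.

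Some of these counts rested on single rats or on the scale. On the log odds scale (M values) the kainic acid comparison called 0 of the 3 cytosines. Without kainic acid seizure rat 3 the kainic acid comparison called 1 cytosine in place of 3. Its calls lower in seizure rats numbered 2 without any other single kainic acid rat, sham or seizure. They also numbered 2 without kindling seizure rat 1, 2 or 4. Without kindling sham rat 2 the kindling comparison called 3 cytosines and the sham comparison 2, and without kindling sham rat 1 or 4 each called 1, in place of 0.

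The called cytosines stood at 2 places 138 kb apart. The first CpG lies at chr16:20849982 (plus strand) and 20849983 (minus strand), 10.8 kb downstream of the Cers1 start, between the starts of Upf1 and Cers1. On its plus strand the kindling sham rats had 70, 96, 50 and 50% and the kindling seizure rats 95.7, 89.1, 98.6 and 90.9%. The kainic acid sham rats had 92.2 to 100% with a median of 97.6%, and the seizure rats 48.1, 42.3 and 50.9%. All 3 kainic acid seizure rats were thus below all 7 of their sham rats, while in kindling sham rat 2 overlapped with the seizure rats. Group means of sham and seizure rats were 66.5% ± 21.8 and 93.6% ± 4.33 for kindling (SD, n = 4 each), against 96.8% ± 2.61 (SD, n = 7) and 47.1% ± 4.43 (SD, n = 3) for kainic acid, so that seizure minus sham was 27.1 and -49.7 points. The minus strand, measured from other reads, gave 27.4 and -48.0 points, with kindling sham rat 2 again high at 94.1% beside 58.3 to 62% in the other 3.

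The third called cytosine, chr16:20988231 on the plus strand, lies 26.0 kb downstream of the Slc25a42 start. Its other strand was not measured. Kindling sham rats had 65.5, 45, 55 and 73.3% and kindling seizure rats 95.7, 93.6, 100 and 96.3%, so that these groups did not overlap. Kainic acid sham rats had 79.5 to 93.2% with a median of 90.5%, and kainic acid seizure rats 49.2, 44.7 and 41.2%. The means were 59.7% ± 12.4 and 96.4% ± 2.66 (SD, n = 4 each) for kindling, against 88.3% ± 5.66 (SD, n = 7) and 45% ± 4.02 (SD, n = 3) for kainic acid, with differences of 36.7 and -43.2 points. At both places the high levels were those of kindling seizure and kainic acid sham rats, and the levels near the middle were those of kindling sham and kainic acid seizure rats, with kindling sham rat 2 near Cers1 as the exception. Only 2 other cytosines were measured within 500 bp of the first CpG, with a median range of 13.6 points, and 20 around the second site, with a median range of 25.6 points.

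**Figure D2:**
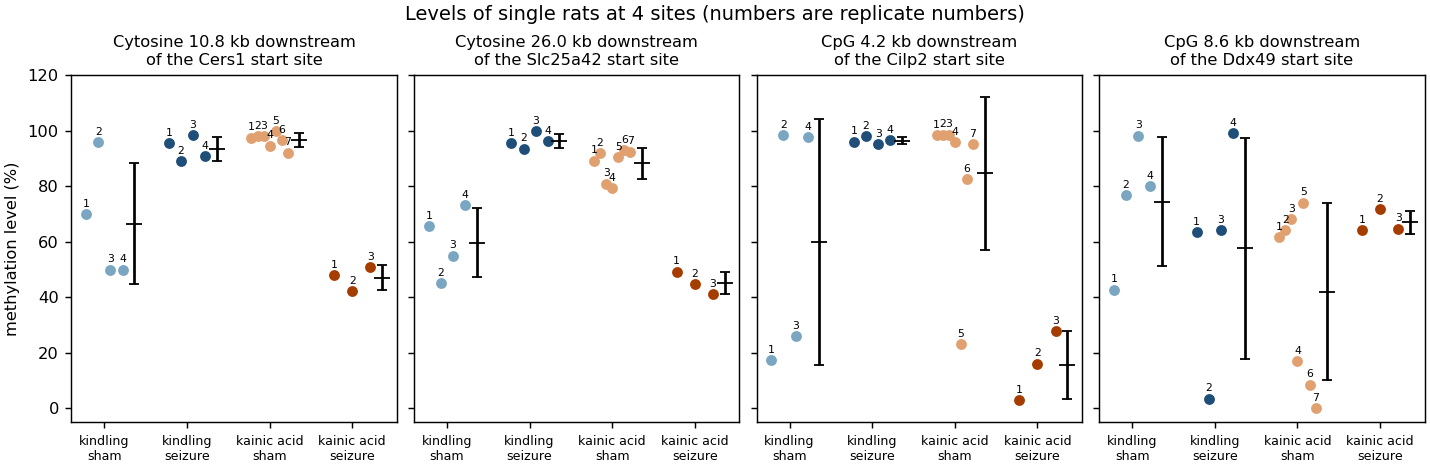
Methylation level (%) of each rat (points, numbered by replicate) at the plus-strand cytosine near Cers1, the cytosine near Slc25a42 and 2 CpGs with both strands averaged near Cilp2 and Ddx49, with the group mean and SD as bars beside the points. At the sites near Cers1 and Slc25a42 the 3 kainic acid seizure rats sit near the middle, between 41.2 and 50.9%. Near Cilp2 they sit low, between 2.99 and 27.7%. At the CpG near Ddx49 they sit in the middle and the other groups span nearly the full scale.

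Sites whose levels over the 18 rats were most like those of the called CpG near Cers1 were sought inside the span. The closest was the called cytosine near Slc25a42 at Pearson's r = 0.782 (n = 18 rats). It was followed by 21274649 at r = 0.759, with a range of only 9.62 points, and by 21293059 at r = 0.740, with 93.3 points. The closest in mirror image was 20578121 at r = -0.806, though its range was only 2.22 points. Then came 21295248 at -0.804, with a range of 9.72 points, and 21343201 at -0.781, with 69.2 points. For the cytosine near Slc25a42, outside the Cers1 CpG, the leading site was 21093733 at r = 0.748 and the leading mirror image 21294501 at r = -0.804. Since these sites all share the same 18 libraries and were picked from the whole span, the coefficients are descriptive. The called sites were moreover called in the same comparisons, so a high r between them follows in part from how they were chosen.

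CpGs that vary widely fell into patterns that repeated at distant places. When the 93 wide CpGs were joined by the size of their correlation over rats (average linkage on 1 minus the absolute r, split at 0.3), 24 fell into 3 sets of 3 or more and 69 into none. Set A held 12 CpGs over 784 kb, from 20559546 to 21343234, with a median absolute r of 0.793 between members. Set B held 3 CpGs over 89.2 kb with a median of 0.893, and set C held 9 CpGs over 275 kb with a median of 0.943. After each group's mean was removed from its rats, the medians were 0.778, 0.883 and 0.920, so the correlations did not rest on group means alone. The sets were built from correlations over these same rats, so the size of all these medians follows in part from that choice. The CpGs of the sets named below, other than the 6 most variable ones measured on both strands, were chosen after their values were seen.

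**Figure D3:**
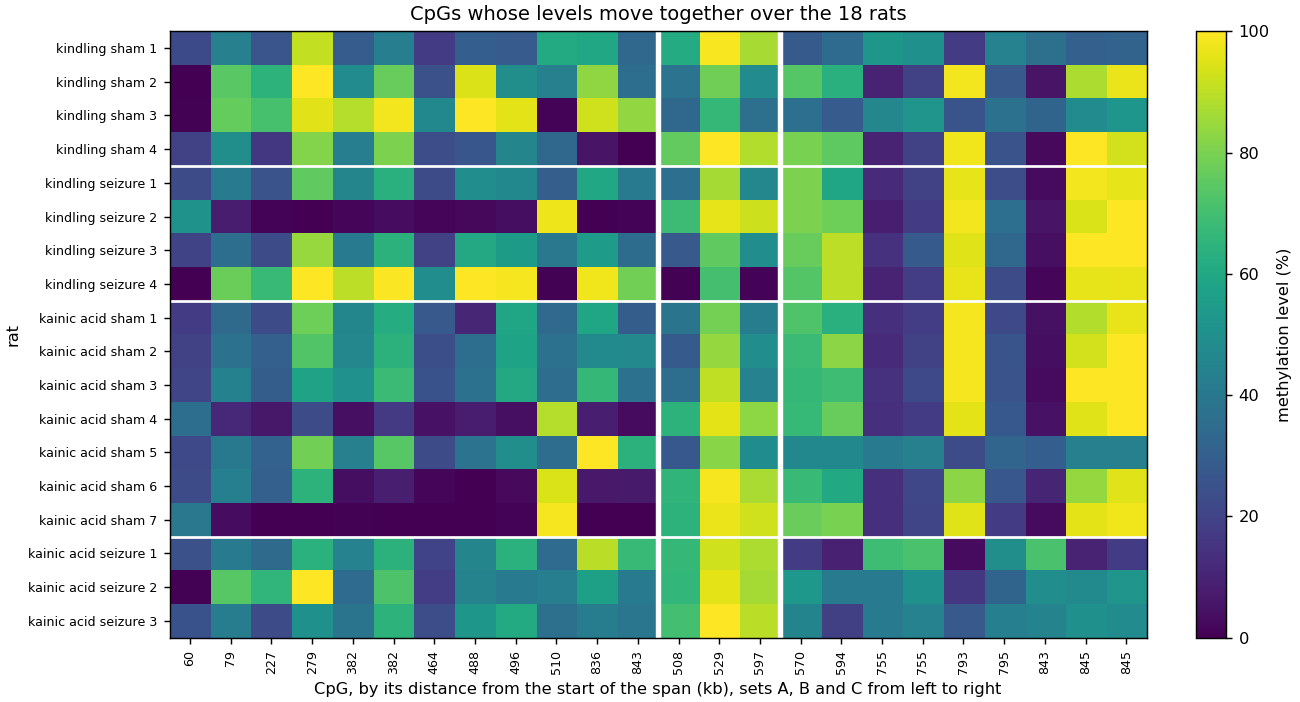
Methylation level (%, colour) of the 18 rats (rows, white lines between groups) at the 24 CpGs of sets A, B and C (columns, labelled by distance in kb from the start of the span). In set C the 3 kainic acid seizure rats, kindling sham rats 1 and 3 and kainic acid sham rat 5 stand apart from the remaining rats at 8 of the 9 CpGs, while in set A kindling seizure rats 2 and 4 of the same group sit at opposite ends.

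Set A had rats of the same group at opposite ends of the scale. Among its members measured on both strands the widest, the CpG at 20882237, lies 8.6 kb downstream of the start of Ddx49, a DEAD-box RNA helicase, with Homer3 the next gene in RefSeq order. Kindling sham rats had 42.7, 76.8, 98.3 and 80.2% and kindling seizure rats 63.6, 3.40, 64.1 and 99.3%. Kainic acid sham rats 1, 2, 3 and 5 had 61.8, 64.3, 68.2 and 74.1%, sham rats 4, 6 and 7 had 16.9, 8.44 and 0.0%, and the seizure rats 64.3, 71.9 and 64.8%. Thus 4 rats were below 20%, 3 above 80% and 11 between, with sham and seizure rats in each class. The CpG at 20881708, 529 bp away, moved with it over the 18 rats at r = 0.936. The CpG at 21010462, 6.7 kb downstream of the Mef2b start, mirrored it: kindling sham rat 3 and seizure rat 4 had 0.840 and 0.676%, kindling seizure rat 2 had 97.3%, and kainic acid sham rats 4, 6 and 7 had 89.0, 94.2 and 98.5%.

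Along set A, some rats kept their place and others changed it. Kindling sham rat 3 and kindling seizure rat 4 stood together at 1 end and kindling seizure rat 2 and kainic acid sham rat 7 at the other at the members from 20559546 to 21343234. Kindling sham rat 2 and kainic acid seizure rat 2 stood with the first pair at the 4 members nearest the start of the span: at 20779026 both had 100%, and at 20726600 they had 64.8 and 65.9% beside 71.0% in kindling sham rat 3. At 20881708 they were in the middle, with 48.4 and 34.8% beside 88.8% in kindling sham rat 3. At 20988218 kindling sham rat 2 was again near kindling sham rat 3, with 94.7% beside 100%, while kainic acid seizure rat 2 had 44.7%. At 20996285 kindling sham rat 2 was in the middle, with 49.5%. Kainic acid sham rat 6 was in the middle at 20779026, with 64.7%, and near 0 at 20881708, with 3.76%. Kindling sham rat 4 had 80.2% at 20882237 but 5.26% at 21335827 and 0.0% at 21343234. The members near the start, in the middle and near the end of the span therefore did not order all rats alike.

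At 2 of the 3 CpGs of set B kindling seizure rat 4 alone was near 0. At its widest member, 21096760, which lies 7.3 kb upstream of the Hapln4 start, this rat had 0.794% and the other kindling seizure rats 46.2, 92.3 and 49.2%. Kindling sham rats had 86.9, 48.1, 36.8 and 88.6%. Kainic acid sham rats had 42.1 to 92.9% with a median of 49%, and the seizure rats 87.5, 86.6 and 89.6%. The 3 kainic acid seizure rats were all on the high side, together with sham rats 4, 6 and 7 at 82.8, 87.2 and 92.9%, so the groups overlapped.

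Set C carried wide differences of opposite sign between models. Its widest member, the CpG at 21293059, lies 4.2 kb downstream of the Cilp2 start. Kindling sham rats had 17.2, 98.4, 26.1 and 97.9% and kindling seizure rats 96.1, 98.2, 95.1 and 96.6%. Kainic acid sham rat 5 had 23.2% and the other 6 had 82.6 to 98.6%, while the seizure rats had 2.99, 16 and 27.7%. Low levels were thus seen in 2 of 4 kindling sham rats, 0 of 4 kindling seizure rats, 1 of 7 kainic acid sham rats and 3 of 3 kainic acid seizure rats. Seizure minus sham was 36.6 points for kindling and -69.1 for kainic acid. The same 6 rats stood apart, in mirror image, at 21343201, 36.9 kb downstream of the start of Atp13a1, an ATPase of the endoplasmic reticulum. There kindling sham rats 1 and 3 had 37.1 and 32.1%, kainic acid sham rat 5 had 30% and the kainic acid seizure rats 71.1, 48.8 and 44.9%, whereas the remaining rats had 1.52 to 10.2%. These rats stood apart without overlap at 8 of the 9 members, the exception being 21294505, where kindling seizure rat 2 reached 36.7% beside 32.1% in kainic acid seizure rat 2. At each of the 9 members kainic acid seizure rat 1 was the most extreme of all 18 rats.

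Closeness along the DNA did not by itself place CpGs in the same pattern. The set A CpG at 21343234 lies 33 bp from the set C CpG at 21343201, with r = 0.445 between them. At the called site near Slc25a42, the set A CpG at 20988218 lies 13 bp away with r = -0.377. In set C, 21255086 and 21255129, 43 bp apart, had r = 0.985, and 21344985 and 21345148, 163 bp apart, had r = 0.987. Sets were built from such correlations, so a high r between members follows from that choice. Outside any set, 21101261 and 21101285, 24 bp apart, had r = 0.774, while 20555743 and 20555766, 23 bp apart, had r = -0.141.

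Over all pairs of sites, the typical correlation was confined to short distances. Among the 655 cytosines with a range of at least 20 points, the median r over 18 rats was 0.278 at 2 to 100 bp, 0.178 at 100 to 1000 bp, 0.0568 at 1 to 10 kb and 0.00171 beyond 100 kb. Over all 2788 windows of 1 Mb in the table the same medians were 0.301, 0.144, 0.0427 and 0.00467. At this filter the medians of the span and the whole table thus fell off alike. Between strands of a CpG the median at this filter was 0.196 in the span and 0.210 in all windows, below those at 2 to 100 bp. Among the 95 cytosines with a range of at least 40 points, the median between strands of a CpG was 0.917, beside 0.885 in all windows, and at 2 to 100 bp it was 0.357 beside 0.573. It was 0.123 beside 0.456 at 100 to 1000 bp and 0.0372 beside 0.187 at 1 to 10 kb, so at this filter the span was lower. An absolute r above 0.8 was found for 8.23% of these pairs at 10 to 100 kb, beside 3.07% in all windows, and for 2.46% beyond 100 kb, beside 1.54%. At 1 to 10 kb the order was the other way round, with 5.43% beside 20.4%. Pairs share cytosines and all share the 18 libraries, and the span was picked from its levels, so these shares are a description. For the 37 wide CpGs measured on both strands the median r between strands was 0.532 and the median difference 9.52 points.

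**Figure D4:**
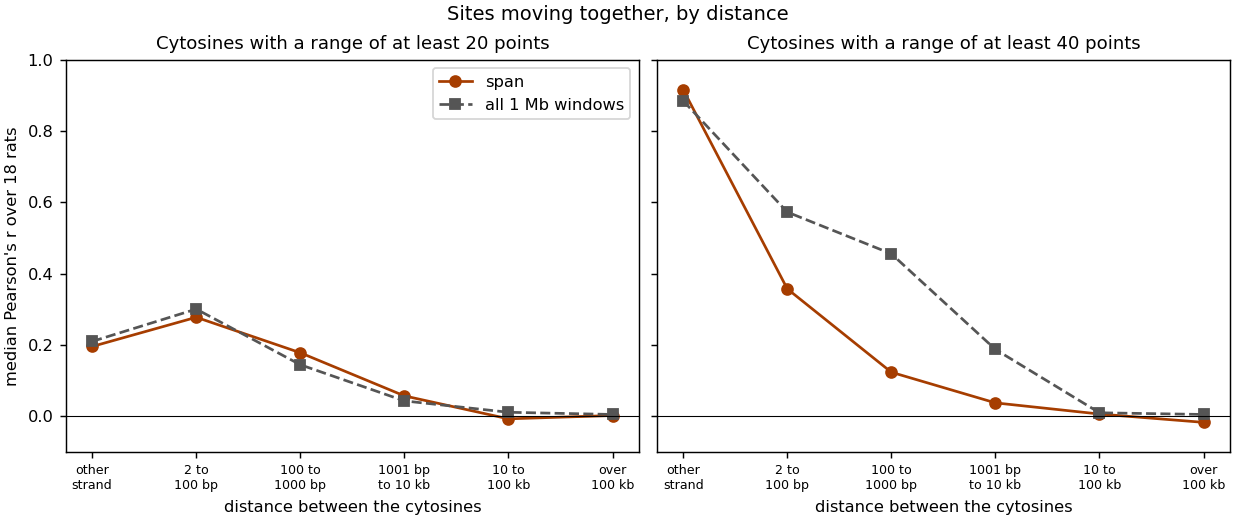
Median Pearson's r over 18 rats (y axis) between cytosines by the distance between them (x axis), for the span (circles) and all 1 Mb windows (squares), at a range of at least 20 points (left) and 40 points (right). On the left the median of the span is 0.196 between strands, 0.278 at 2 to 100 bp and 0.00171 beyond 100 kb. On the right it falls from 0.917 between strands to -0.0175 beyond 100 kb.

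Rats of the same group could lie nearly as far apart as any. Over the 93 wide CpGs the mean absolute difference between 2 rats was smallest for kainic acid sham rats 2 and 3, at 7.06 points, and next for kindling seizure rat 1 and kainic acid sham rat 2, at 7.86 points. It was largest for kindling sham rat 3 and kindling seizure rat 2, at 26.6 points, while kindling seizure rats 2 and 4, of the same group, differed by 25.4 points. The median was 13.1 points for pairs of the same group, most of them kainic acid sham pairs, and 15.3 points for other pairs. Pairs differed by 16.8 to 23.3 points among kindling sham rats and by 8.67 to 25.4 points among kindling seizure rats. Among kainic acid rats they differed by 7.06 to 18.8 points (sham) and 10.3 to 12.4 points (seizure). All kindling sham pairs thus lay above the median of other pairs.

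Differences of opposite sign in the models were counted over every cytosine of the span, with each strand counted on its own. A difference of at least 10 points in each model had opposite signs at 30 cytosines and the same sign at 1. The opposite count is 0.498% of the span, beside 0.219% of all cytosines, where 0.149% had the same sign, and 18 of the 30 were higher after kainic acid and 12 higher after kindling. At 20 points or more there were 11 opposite, 9 of them higher after kindling, and 0 of the same sign, beside 0.0444% opposite and 0.015% alike in the whole table. At 5 points 76 cytosines were opposite and 39 alike. These are 1.26% and 0.648% of the span, beside 1.27% and 1.22% of the whole table. In set C all 9 CpGs differed in sign between models, 8 of them by at least 10 points in each, and in set A 11 of 12 did, 4 of them by at least 10 points in each. Set B had 3 of 3, with 2 at 10 points. Since opposite signs were among the grounds for choosing the span, these counts support nothing further.

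**Figure D5:**
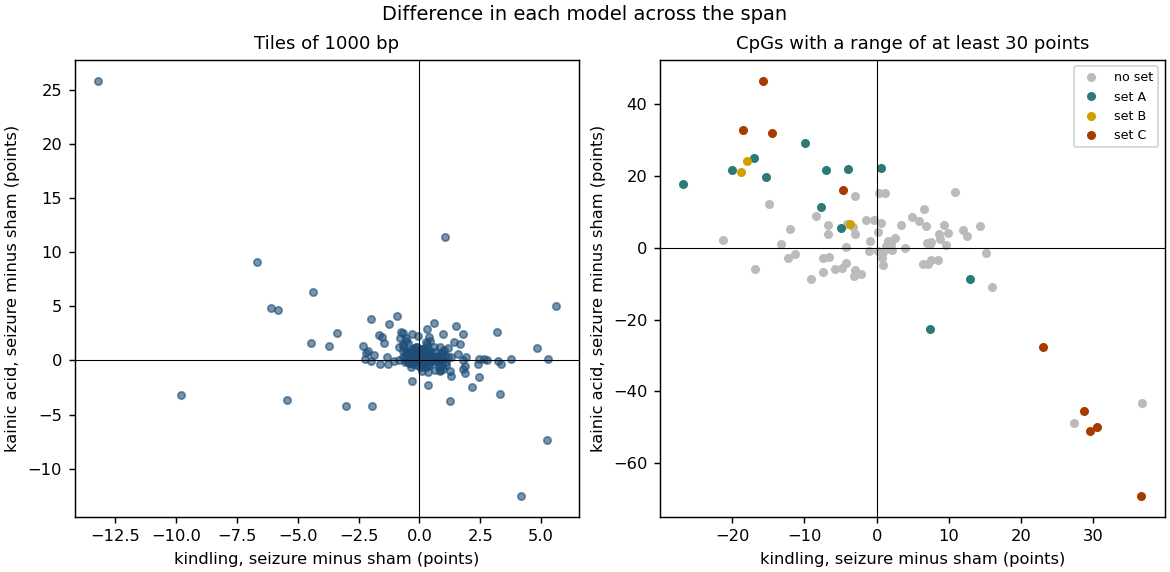
Difference between seizure and sham rats in kindling (x axis, points) against that in kainic acid (y axis, points) for the 219 tiles (left) and for the 93 CpGs with a range of at least 30 points, coloured by set (right). Most tiles lie near 0, and the CpGs of set C lie in the quadrants of opposite sign, 1 of them at -15.7 and 46.5 points and another at 36.6 and -69.1 points.

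Seizure and sham rats without overlap were no more common than elsewhere in kindling. They were found at 38 of the 1682 cytosines in kindling, or 2.26%, beside 2.42% of all tested, 24 of them higher in seizure rats. In kainic acid there were 36, or 2.14%, beside 1.53%, with 22 higher. Among the 96 tiles there was 1 in kindling (2.44% of all tiles) and there were 3 in kainic acid (1.49% of all).

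Averaged over tiles, most differences were small. By mean level, 44 of the 219 tiles lay under 10%, 132 between 10 and 90% and 43 above 90%, and 14 had a range of at least 20 points, or 6.39% beside 6.61% of all tiles. Tiles are named by their first position, and distances are from their middle. The tile with the largest difference in both models, 21255001, had its middle 19.8 kb upstream of the start of Ndufa13, a subunit of respiratory complex I, and holds 5 cytosines, among them those of 2 set C CpGs. Kindling sham rats had 61.0, 31.7, 59.4 and 31.7% and kindling seizure rats 32.8, 30.1, 36.7 and 31.2%. Kainic acid sham rat 5 had 53.3% and the other sham rats 32 to 33.7%, and the seizure rats 75.3, 56.3 and 53.7%. The kindling groups overlapped, and in kainic acid the lowest seizure rat stood just above sham rat 5. Sham and seizure means were 45.9% ± 16.4 and 32.7% ± 2.90 for kindling (SD, n = 4 each), against 35.9% ± 7.68 (SD, n = 7) and 61.8% ± 11.8 (SD, n = 3) for kainic acid. This was the only tile with at least 10 points in opposite directions, 1 of 219 beside 0.0693% of all tiles, with 0 in the same direction beside 0.0264%. Without kindling sham rat 1 or 3 there was none, the kindling difference being -8.22 points without rat 1 and -8.76 points without rat 3.

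In the other tiles with the largest losses and gains the sham and seizure rats overlapped, except at 20717001 in kindling. In kindling the next losses were at 20833001, 8.7 kb downstream of the Upf1 start, with -9.80 points, and at 20882001, near Ddx49, with -6.67 points. The tile at 20882001 rested on kindling seizure rat 2, at 53.5% beside 76.2 to 90.3% in the others, and its difference was 0.230 points without that rat. It was -12.0 points without kindling seizure rat 4 and -10.4 points without kindling sham rat 1. Differences of -6.10 and -5.81 points at 20579001 and 21096001 completed the 5 largest. Without kindling seizure rat 2 the difference at 20579001 was -3.46 points. At 21096001 it was -1.23 points without kindling seizure rat 4 and -3.71 and -3.67 points without kindling sham rats 1 and 4, and it grew to -9.94 points without kindling seizure rat 2 and -9.29 points without kindling sham rat 3. Kindling gains were smaller, from 5.63 points at 20520001, 1.5 kb upstream of the start of the peptidase gene Pgpep1, to 4.18 points at 21010001 near Mef2b. The gain at 20520001 was 0.763 points without kindling sham rat 4, 2.94 points without kindling seizure rat 4 and 8.88 points without kindling sham rat 2. That at 21010001 turned to -5.21 points without kindling seizure rat 2 and to -2.73 points without kindling sham rat 3, and was 9.01 points without kindling sham rat 1 and 11.5 points without kindling seizure rat 4. These tile differences thus rested on few rats. Between these were 20846001, 21344001 and 20717001, and at 20717001, 23.3 kb upstream of the Crtc1 start, the kindling groups did not overlap: sham rats had 27.9, 26.8, 25.5 and 25.9% and seizure rats 32.6, 30.4, 33.7 and 28.8%.

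In kainic acid the tile at 21010001 had the largest loss. Sham rats had 61 to 95% with a median of 62.4% and seizure rats 60.3, 65.9 and 59.3%, a difference of -12.5 points, with sham rats 4, 6 and 7 at 88.3, 90.3 and 95%. The remaining losses ran from -7.31 points at 21344001 to -3.77 points at 21345001, with 20799001 and 20524001 between them. After 21255001 the largest gain was at 21343001, a tile with its middle 36.6 kb downstream of the Atp13a1 start, which holds CpGs of sets A and C. Its sham rats had 57.1 to 70.1% with a median of 63.2% and its seizure rats 78.7, 75.9 and 67.2%, a difference of 11.4 points. Gains of 9.12, 6.30 and 5.04 points followed at 20882001, 20752001 and 20520001, and the last was 2.31 points without kainic acid seizure rat 3 and 8.74 points without seizure rat 2. Of the named tiles, 21255001, 20882001 and 21344001 differed by at least 5 points in opposite directions in the models and 20520001 by at least 5 points in the same direction, and these 3 and 1 were the only such tiles of the span, beside 0.514% and 0.392% of all tiles. Without single rats 20520001 fell below 5 points in each model, as given above, and so did 20882001 in kindling and 21344001 in kindling, at 3.63 points without kindling sham rat 1. No tile reached 20 points in both models, beside 0.00264% opposite and 0.00066% alike.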

How the data were processed

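Left hippocampi of 18 rats in 4 groups, taken from the labels, were profiled by reduced representation bisulfite sequencing. Per the file headers and values, each line of the deposited table is a cytosine of a CpG on 1 strand, with a methylation fraction (beta value, 0 to 1) for every rat. Among the tools in the submitters' processing notes are Trim Galore, Bowtie2, Bismark and methylKit, with build rn6 and no versions, roles or coverage minimum. The authors' table holds no read counts, so depth is unknown and no interval is given for a single level. A level resting on few reads moves in coarse steps, which widens ranges over rats. All columns were matched to rats by library names, with 0 unused.

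Fractions were turned into percent. Tiles are means over cytosines in windows of 1000 bp with at least 3. Tests used limma 3.58.1 (R 4.3.3, version 1.17.8 of the data.table package) over all 18 rats and 4 groups with 14 residual degrees of freedom, on units of the whole table with a range of at least 10 points (cytosines) or 5 points (tiles). The code was tested on simulated data. Python 3.11.15 with scipy 1.17.1 and matplotlib 3.10.9 served for linkage and figures.

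RefSeq promoters were placed where at least 9 measured CpGs all fell on CG positions of the sequence. This gave 25 placements and 0 others elsewhere among the measured CpGs for those promoters. Placements with 8 CpGs were not used, since 6 of 8 disagreed with RefSeq in chromosome or orientation. An rn6 genome and annotation were not used here, so sequence around the variable CpGs is not printed, exon or intron is not stated, and an unplaced gene may lie nearer.

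Units named are the called cytosines with their other strand, the 5 tiles with the largest gain and loss in each model among those tested, tiles moving at least 10 points in opposite directions, the 6 most variable CpGs measured on both strands (some measured on 1 strand vary as much or more), and the 5 most alike and 3 most opposite cytosines of each called CpG, with the leading ones printed. The span, its members and these rules were chosen with earlier results of these data known. Alternatives were M values (log2 odds, levels held between 1 and 99%), other range filters, fits within a model, a replicate block and leaving out each rat.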

Additional observations from a re-analysis of the deposited data

Results flagged for a closer look

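At 4 of the 75 combinations examined, of a site, tile or the span mean with a group, a single rat lay far from the rest of its group. The kainic acid seizure group, with 3 rats, was too small for this rule and was not examined. Some of the items share cytosines. Chance flags about 1 in 20 such groups. Kindling sham rat 2 had 94.1% at the minus-strand cytosine 20849983 near Cers1, beside 58.3 to 62% in the other kindling sham rats. Kainic acid sham rat 5 had 53.3% in the tile starting at 21255001, beside 32 to 33.7% in the other sham rats of that model. The same rat had 23.2% at the CpG at 21293059 near Cilp2, beside 82.6 to 98.6%. Kindling seizure rat 4 had 27.1% in the tile starting at 20846001, beside 35.5 to 37.1%.

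At 3 cytosines the difference between seizure and sham rats itself differed between the models by the limma contrast over all cytosines. The gap between the models was -76.8 points at 20849982, -75.4 points at 20849983 and -79.9 points at 20988231 (seizure minus sham after kainic acid, less the same after kindling). The span was chosen from this contrast, so these values describe it and are not independent evidence.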

How the results depend on the processing

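The 3 kainic acid calls fell to 0 on M values and to 0 with the replicate number as a block (replicate block). In the block fit kindling had 0 calls and the model difference 2, against 3 without it, and M values also gave 2 for the model difference. Deviations of rats with the same number correlated at -0.0333 to 0.0769 in kindling (median 0.0443, 4 pairs). In kainic acid they correlated at -0.0171 to -0.00383 (median -0.00926, 3 pairs). Other numbers reached 0.107 and 0.0506, with medians of -0.0247 and -0.00727. With so few pairs these values cannot tell whether rats with the same number were paired. No block was fitted for the sham comparison. Leaving out each rat in turn gave 0 to 3 kindling calls and 1 to 4 kainic acid calls. It gave 2 to 4 for the model difference and 0 to 2 for the sham comparison, with 0 to 0 tiles in every comparison. Of the 4 kainic acid calls without kainic acid sham rat 5, 2 were higher in seizure rats and 2 lower. Of the 4 without kindling sham rat 1 or 4, 1 was higher and 3 were lower. Tiles moving in opposite directions numbered 0 to 2 without single rats, and 3 at 5 points in each model in place of 1 at 10. Settings added after seeing the data gave 23 to 36 opposite cytosines without single rats, and sets split at 0.4 held 49 CpGs in 9 sets in place of 24 in 3. The cause of these changes was not tested. The span mean difference ran from -0.00163 to 0.361 points in kindling and from 0.334 to 0.551 points in kainic acid. At a range of at least 40 points, the median r between strands was 0.917 in place of 0.196. Depth is unknown, and group sizes of 3 to 7 limit the precision.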
